A study of Mus musculus with 52 samples.

Results

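The genes described here are 7 markers that separate kinds of spinal motor neuron, out of 55401 mouse genes in the count table. Chodl, Mmp9 and Calca (3 genes) mark fast alpha motor neurons, and Esrrg, Esrrb, Wnt7a and Gfra1 (4 genes) are higher in gamma motor neurons. They are a fixed set of names, put together with earlier results of these data known. The tissues were spinal cord, cortex and skeletal muscle, taken from mice that model amyotrophic lateral sclerosis (ALS), a disease in which motor neurons die. Each tissue had 3 arms. Wild-type mice of the FVB/NJ strain received vehicle. Mice transgenic for human PFN1 with the ALS mutation C71G, which alters the actin-binding protein profilin-1, received vehicle in the second arm. In the third arm the same transgenic line received an adeno-associated virus (AAV) with an artificial microRNA (amiR) against Atxn2, the gene of the RNA-binding protein ataxin-2. No arm received a control vector, so the vector itself and the loss of Atxn2 cannot be told apart. The transgene's promoter, the route and the age at dosing are not given in the sources used here.

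Alpha motor neurons drive the fibres that generate force, whereas gamma motor neurons innervate the small fibres inside muscle spindles and set the sensitivity of stretch sensing. In ALS and its mouse models, motor neurons of fast-fatigable units lose their endplates first, those of slow units later, and gamma motor neurons are largely spared. Chodl encodes chondrolectin, a membrane C-type lectin, and Mmp9 a secreted gelatinase. Calca encodes calcitonin and the neuropeptide CGRP, which motor neurons release at the endplate. Esrrg and Esrrb encode orphan nuclear receptors of the estrogen-related family, Wnt7a a secreted ligand, and Gfra1 the co-receptor through which Ret binds GDNF. None of the 7 is restricted to motor neurons: Esrrg, Esrrb, Wnt7a and Gfra1 are also made by other spinal neurons, and Calca by sensory neurons whose fibres, but not cell bodies, enter the cord.

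The genes lie on 7 chromosomes of the GRCm38 assembly. Chodl spans chr16:78930948-78951733 and Mmp9 chr2:164940780-164955850, both on the plus strand. Calca spans chr7:114631478-114636357 on the minus strand. Esrrg spans chr1:187608791-188214885 and Esrrb chr12:86361117-86521628, both on the plus strand. Wnt7a spans chr6:91363981-91411363 and Gfra1 chr19:58235604-58455909, both on the minus strand. Of the 100-base words of Gfra1 exons, 5.7% also occur in Gm16277, a gene on the opposite strand, so the counting could have split those reads. The other 6 genes shared no such word with another gene.

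The promoters of Chodl, Calca and Wnt7a are shown because their levels went apart in the transgenic cord: the first pair fell and the last rose. Each line gives the 250 bases before the RefSeq start site, on the gene's strand (GRCm38.p6). They are chr16:78930698-78930947 for Chodl, chr7:114636358-114636607 for Calca and chr6:91411354-91411603 for Wnt7a. Capitals mark CCAAT-box matches on either strand.
Chodl promoter: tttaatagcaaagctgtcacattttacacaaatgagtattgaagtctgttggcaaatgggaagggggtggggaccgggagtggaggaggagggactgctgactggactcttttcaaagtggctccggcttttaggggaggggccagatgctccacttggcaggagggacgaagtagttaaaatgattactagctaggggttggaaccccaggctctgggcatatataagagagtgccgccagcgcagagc
Calca promoter: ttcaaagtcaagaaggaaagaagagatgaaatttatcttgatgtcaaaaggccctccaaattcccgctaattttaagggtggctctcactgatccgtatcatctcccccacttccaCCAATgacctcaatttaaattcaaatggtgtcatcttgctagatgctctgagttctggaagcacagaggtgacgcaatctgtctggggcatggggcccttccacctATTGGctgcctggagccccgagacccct
Wnt7a promoter: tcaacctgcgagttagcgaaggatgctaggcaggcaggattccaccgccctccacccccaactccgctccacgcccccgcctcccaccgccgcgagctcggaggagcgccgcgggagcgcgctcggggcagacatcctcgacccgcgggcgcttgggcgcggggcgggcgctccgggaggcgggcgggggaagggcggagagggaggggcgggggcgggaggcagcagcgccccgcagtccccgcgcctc

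Over the window that adds the 50 bases after the start, the Wnt7a promoter was the richest of the 3 in G and C, at 76.0% with 42 CG dinucleotides. The Chodl window held 52.7% G and C with 6 CG, and the Calca window 51.3% with 8. The medians over 32851 mouse promoters of that length were 52.7% and 7. A promoter was found for 6 of the 7 genes. Both strands were searched for the estrogen-related receptor element TCAAGGTCA, its half-site AAGGTCA (which lies within it), TATAAA and CCAAT, found in 0.423%, 4.72%, 13.6% and 37.4% of all promoters. Neither receptor motif occurred in a window of these genes, which says only that these letters are not there.

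The series held 52 libraries with 66.5 to 111.9 M counts each, and those of spinal cord held 73.2 to 109.3 M. Each arm had 6 libraries except wild-type cortex and vehicle-treated transgenic muscle, with 5. Mice were 36 weeks old for 41 libraries and 38 or 39 weeks for 11, all of them transgenic; in spinal cord the 4 older mice were females. Human PFN1 lay at 634 to 736 CPM (counts scaled to the library total) in the vehicle-treated transgenic cord and at 0 in wild type. Treated cords held 607 to 1167 CPM, with replicates 5 (1167) and 4 (1042) the highest. The part of the transgene level in the treated values was not tested. Atxn2 lay at 68.2 to 77.6 CPM in treated, 106 to 115 in vehicle-treated transgenic and 115 to 124 in wild-type cords. For 4 cord libraries (vehicle-treated transgenic 5 and 6, treated 1 and 2) the 2 labels disagree: the sample title names one treatment and the library name the other. In 4 of 4 the vector counts matched the title, so the title was followed, and results are also given without these libraries. The labels do not tie tissues to animals or say that libraries are separate animals, so p-values measure the spread between libraries.

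In wild-type spinal cord all 7 genes were well above background, with at least 727 counts in any library. Per kilobase of exon the order of mean levels was Gfra1 (14.7 CPM per kb), Esrrg (12.9), Calca (11.0), Chodl (7.99), Wnt7a (3.73), Mmp9 (3.06) and Esrrb (1.75). These are levels in bulk tissue, to which every cell that makes the gene contributes.

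The first comparison asked how the markers differed in the transgenic cord. All 3 fast markers fell, Chodl the most, to 26.9% of the wild-type mean. Of the gamma-type markers Esrrg and Esrrb fell to 64.3% and 64.6%, Wnt7a rose to 120%, and Gfra1 did not pass the test. Thus 6 of 7 genes passed an adjusted p of 0.05, 5 of them lower, in a comparison in which 36.8% of all 20309 genes tested passed and 17.9% were lower. With scaling to library totals in place of TMM, the share of calls that were higher went from 51.2% to 72.9%, and the same 6 markers passed in the same directions, where 36.2% of all genes passed. The libraries of the arms did not overlap for 5 of the 7, against 22.9% of all genes. In bulk tissue, fewer cells of a type and less RNA per cell cannot be told apart.

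Chodl, the membrane lectin of fast motor neurons, lay at 34.3, 44.1 and 56.3 CPM in wild-type cords (lowest, median and highest of 6, after TMM scaling, as are all levels of the spinal cord below). In vehicle-treated transgenic cords these were 3.34, 10.9 and 19.3 CPM. Every transgenic library thus lay below every wild-type library, and replicate 1, a female of 36 weeks, lay far below the rest. The log2 fold change was −1.97 (SE 0.25, adjusted p = 1.12e-05 by edgeR's quasi-likelihood test).

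Mmp9, the gelatinase of fast-fatigable motor neurons, lay at 8.43, 9.78 and 14.4 CPM in wild type and at 4.18, 4.58 and 6.73 CPM in the transgenic cord. The arms did not overlap, and transgenic replicate 5 lay apart at the top of its arm. The log2 fold change was −1.14 (SE 0.15, adjusted p = 1.34e-05).

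Calca lay at 15.2, 18.4 and 24.5 CPM in wild type and at 4.88, 9.64 and 15.8 CPM in the transgenic cord. The arms overlapped in 1 library: transgenic replicate 2, a female of 39 weeks, exceeded the lowest wild-type cords. The log2 fold change was −0.82 (SE 0.27, adjusted p = 0.0246). This call was lost without wild-type replicate 2 (−0.78, adjusted p = 0.0524) or 5 (−0.75, 0.0514), and without transgenic replicate 4 (−0.76, 0.058), 5 (−0.75, 0.059) or 6 (−0.80, 0.0504). Without the 4 libraries with conflicting labels it was −0.70 (adjusted p = 0.139), and without mice older than 36 weeks it was −1.36 (0.000746).

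The orphan receptors moved alike. Esrrg, the receptor gene used to identify gamma motor neurons, lay at 71.3, 80.0 and 89.6 CPM in wild type and at 35.2, 52.2 and 65.5 CPM in the transgenic cord, with no overlap. Its log2 fold change was −0.66 (SE 0.12, adjusted p = 0.000404). Esrrb, its close relative, lay at 9.07, 10.9 and 11.5 CPM in wild type and at 5.52, 7.13 and 8.18 CPM in the transgenic cord, again with no overlap (log2 fold change −0.63, SE 0.13, adjusted p = 0.000809). Chodl, Mmp9, Esrrg and Esrrb passed under each of 30 alternatives, which included leaving out each library.

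Wnt7a, the secreted ligand, lay at 10.7, 11.9 and 13.0 CPM in wild type and at 13.1, 13.6 and 16.1 CPM in the transgenic cord. The highest wild-type cord (13.03 CPM) lay just under the lowest transgenic one (13.11 CPM), so the arms did not overlap, and the log2 fold change was 0.27 (SE 0.07, adjusted p = 0.00421). The highest transgenic values, 16.06 and 15.71 CPM, came from the 2 females of 39 weeks. Without mice older than 36 weeks the log2 fold change was 0.13 (adjusted p = 0.0891).

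Gfra1, the GDNF co-receptor, lay at 72.6, 80.9 and 87.7 CPM in wild type and at 80.3, 86.6 and 95.2 CPM in the transgenic cord. The arms overlapped, and the log2 fold change was 0.12 (SE 0.08, adjusted p = 0.26). On unscaled CPM the difference was 0.21 on the log2(CPM + 0.5) scale, with an exact two-sided permutation p of 0.0108, 1 of 63 such tests. Scaling to library totals moved the median of all genes by 0.10 in this comparison.

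**Figure D1:**
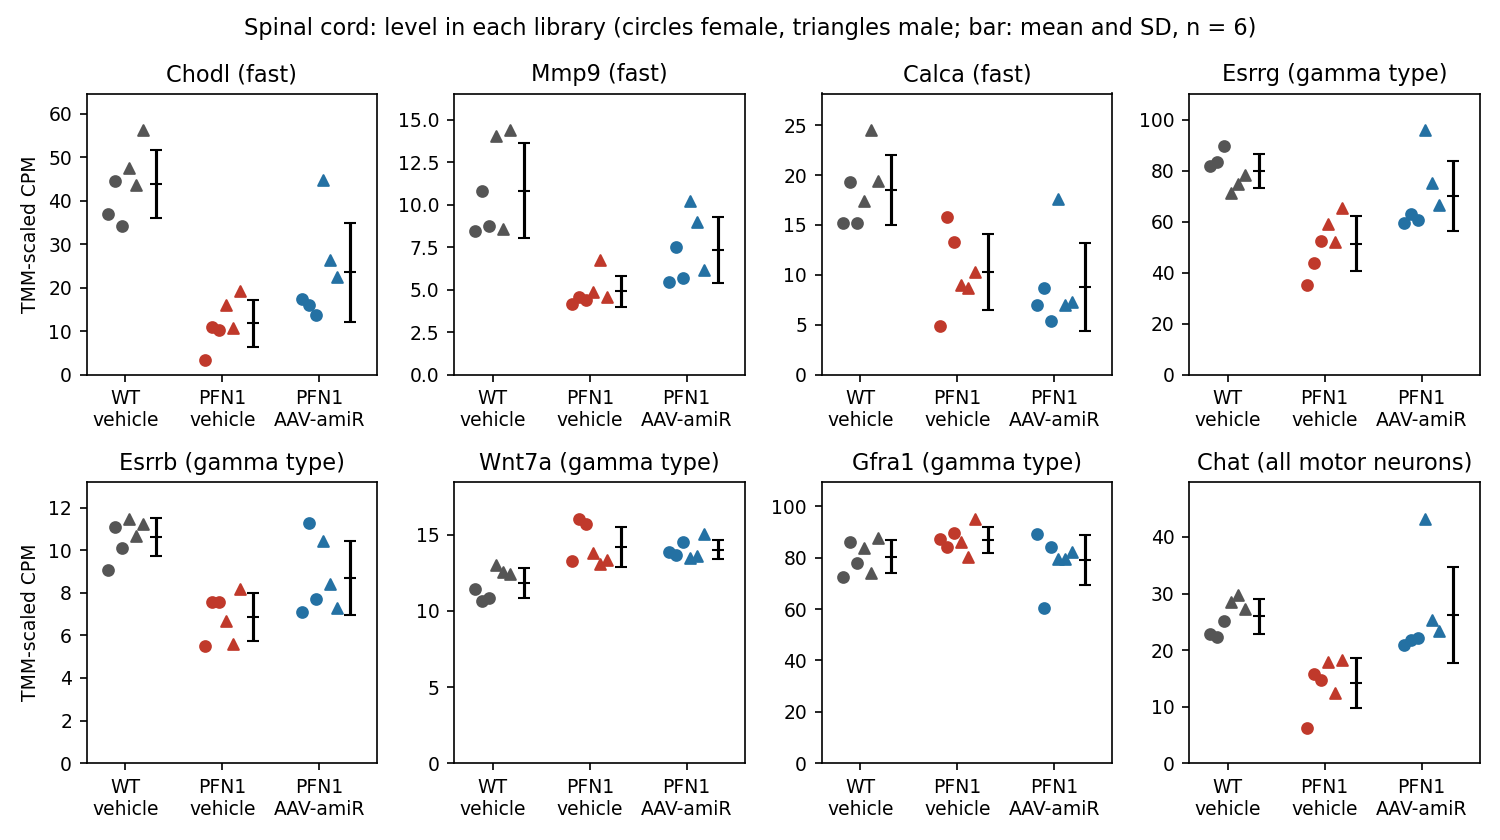
Level of each marker and of Chat in every spinal cord library (y axis, TMM-scaled CPM; x axis, arm; circles females, triangles males; bars, mean and SD, n = 6). Chodl, Mmp9, Esrrg and Esrrb lay lower in every vehicle-treated transgenic library than in every wild-type library, and Wnt7a higher.

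Genes that mark motor neurons of all types gave the setting of these changes. All 12 of a list of 12 fell in the transgenic cord, where 17.9% of all genes fell. The median log2 fold change was −0.82 against 0.00 over all genes. Examples were Lhx4 (−1.14, adjusted p = 1.3e-05), a developmental homeobox gene, Slit3 (−0.65, 2.69e-06), which encodes a guidance cue, Cdh6 (−0.57, 0.000266), which encodes a cadherin, and Ache (−0.44, 0.000435), acetylcholinesterase. Chat, the enzyme that makes acetylcholine, lay at 22.2, 26.2 and 29.8 CPM in wild type and at 6.14, 15.2 and 18.2 CPM in the transgenic cord (log2 fold change −0.88, SE 0.19, adjusted p = 0.00129). Replicate 1 was again the lowest of its arm.

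Markers of the other subtypes did not move as 1 group. Of all genes tested 18.8% rose and 17.9% fell in this comparison. Of 6 further gamma markers Stk32a, which encodes a kinase, fell by 0.50 on the log2 scale (adjusted p = 0.00913) and Htr1d, a serotonin receptor gene, by 0.27 (0.0212). The other 4 did not pass. Of 4 alpha markers Rbfox3, the gene of the neuronal antigen NeuN, fell by 0.32 (0.00165) and Dlk1 by 0.39 (0.00258), while Spp1, osteopontin, rose by 2.11 (5.22e-06). Of 3 slow markers Prkcd rose by 1.11 (2.06e-06) and Sv2a, a synaptic vesicle gene, fell by 0.19 (0.011). Spp1 and Prkcd are also expressed by microglia, whose markers rose in the same libraries (6 of 7 genes, Aif1 by 1.91), to a sum of 737 to 944 CPM against 273 to 378 in wild type. The part of microglia in those rises was not tested.

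Of other spinal neurons, 3 of 8 dorsal and inhibitory markers fell, in a comparison where 18.8% of all genes rose and 17.9% fell. Of 9 genes of sensory ganglion neurons, which also make Calca, 7 were tested, 3 rose and 2 fell. Mrgprd, a receptor gene of nociceptors, rose by 2.59 on the log2 scale (adjusted p = 0.000744), Avil, the actin regulator advillin, by 1.43 (0.00228) and Trpv1, the capsaicin receptor gene, by 0.97 (0.00406), at transgenic means of 0.237, 0.922 and 0.269 CPM. Nefh, a neurofilament gene, fell by 1.11 (1.87e-05) and Isl1, a homeobox gene, by 0.61 (0.0156), and motor neurons express both. The sum of the list, most of it Nefh (1335 CPM on average in wild type), was 1189 to 1550 CPM in wild type, 469 to 758 with vehicle and 640 to 1433 with treatment. Scn10a, a sodium channel gene that defines nociceptors, lay between 0 and 0.11 CPM over the 18 cords and was not tested. The part of sensory neurons in the Calca values was not tested. Neutrophil genes, a source of Mmp9 in blood, summed to 1.22 to 42.1 CPM in wild type and 11.4 to 118 in the transgenic cord, with 0 of 6 tested passing. The part of neutrophils in the Mmp9 values was not tested.

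Genes related to each marker were listed by its pathway or family. Their counts stand beside 18.8% of all genes that rose and 17.9% that fell. Of 9 genes that activate or inhibit Mmp9 or resemble it, 5 rose in the transgenic cord, among them the inhibitor Timp1 (log2 fold change 4.03, adjusted p = 1.74e-08) and the proteases Mmp3 (4.14, 0.000702), Mmp2 (1.14, 0.000244) and Mmp14 (0.39, 0.000931), and none fell. Mmp3 averaged only 0.0128 CPM in wild type, so its fold change depends on the prior count. In the CGRP list 1 of 8 genes changed: Calcb, which encodes a second CGRP peptide, fell by 1.00 (0.0169). None of 4 lectin relatives of Chodl passed.

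Of 12 GDNF-family genes (11 tested), 3 rose and 2 fell, where 18.8% of all genes rose and 17.9% fell. Ret, the receptor kinase that works with Gfra1, fell by 0.39 on the log2 scale (adjusted p = 0.0153), and Dok5, an adaptor of Ret, by 0.28 (0.00459). The ligand genes Nrtn and Artn rose by 0.50 each (0.00585 and 0.0448). Of 5 partners of the estrogen-related receptors, the coactivator gene Ppargc1b fell by 0.50 (0.00189) and the family member Esrra by 0.30 (0.00541). In the Wnt list 3 of 11 rose: Ctnnb1, beta-catenin, by 0.28 (0.000463) and the receptor genes Fzd7 by 0.41 (0.00544) and Lrp5 by 0.30 (0.00953).

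The second comparison set treated against vehicle-treated transgenic cords. Chodl, Mmp9 and Esrrg were higher after treatment, so 3 of 7 genes passed, all higher, where 5.11% of all genes passed and 2.92% were higher. Calca, Esrrb, Wnt7a and Gfra1 did not pass. The first and second comparisons share the vehicle-treated transgenic libraries, so a low value there moves both.

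Treated cords held Chodl at 13.7, 20.0 and 44.9 CPM, or 53.6% of the wild-type mean. The highest was replicate 4, a male, which lay within the wild-type range, and the other 5 reached at most 26.5 CPM. The log2 fold change over vehicle was 0.99 (SE 0.24, adjusted p = 0.0315), and all 6 treated libraries lay above the vehicle mean although the arms overlapped. Mmp9 lay at 5.45, 6.85 and 10.2 CPM, with a log2 fold change of 0.57 (SE 0.15, adjusted p = 0.0345). Esrrg lay at 59.5, 64.6 and 95.9 CPM, with a log2 fold change of 0.45 (SE 0.12, adjusted p = 0.0414). For each of these genes replicate 4 was the highest treated cord.

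These 3 calls lay near the threshold. The sign held in each of 30 alternatives, but Chodl passed in 20, Mmp9 in 14 and Esrrg in 12. Without the 4 libraries with conflicting labels none of the 7 passed (Chodl 1.06, adjusted p = 0.0873; Mmp9 0.57, 0.0973; Esrrg 0.59, 0.0588), nor without mice older than 36 weeks (Chodl 1.26, 0.0753; Mmp9 0.59, 0.123; Esrrg 0.50, 0.122). In those fits 732 of 20506 and 96 of 20552 genes passed, against 1038 of 20309 in the main fit. With the arms of the 4 libraries with conflicting labels taken from the library names, Chodl differed by 0.54 (0.524). There 0 of 20309 genes passed. None of the 7 markers passed without vehicle replicate 4 (Chodl 1.02, 0.0522), treated replicate 4 (0.80, 0.0982) or treated replicate 5 (1.02, 0.0575). Over all genes 536 of 20481, 242 of 20492 and 368 of 20480 passed in those fits. Chodl was also lost without vehicle replicate 5 (0.91, 0.0718). Mmp9 was lost without any of vehicle replicates 1, 2, 3, 4 and 6 or treated replicates 2, 4 and 5, and Esrrg without wild-type replicates 1 or 6, vehicle replicates 1 to 5 or treated replicates 2, 4 or 5. The log2 fold changes in those fits were 0.50 to 0.60 for Mmp9, with adjusted p of at most 0.105, and 0.36 to 0.49 for Esrrg, with at most 0.123.

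Calca did not share this pattern. Treated cords held 5.37, 7.15 and 17.6 CPM, and 5 of 6 lay at or below 8.69 CPM while replicate 4 stood far above them. The log2 fold change over vehicle was −0.25 (SE 0.27, adjusted p = 0.623), and it was 0.27 (0.587) without mice older than 36 weeks. Esrrb lay at 7.08, 8.06 and 11.3 CPM after treatment (log2 fold change 0.34, SE 0.13, adjusted p = 0.114). Wnt7a lay at 13.5, 13.8 and 15.1 CPM, within the vehicle range (−0.02, SE 0.07, adjusted p = 0.893), with a 95% interval of −0.15 to 0.11. Gfra1 lay at 60.5, 80.8 and 89.2 CPM (−0.14, SE 0.08, adjusted p = 0.293), and its lowest library, replicate 2, stood apart.

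The pan-motor-neuron list gave 3 of 12 genes higher after treatment, where 2.92% of all genes were higher. They were Chat (0.88, adjusted p = 0.0177), Prph, which encodes the intermediate filament peripherin (1.23, 0.00822), and Slit3 (0.40, 0.00789). Treated cords held Chat at 20.9, 22.8 and 43.2 CPM, every library above every vehicle library, where 2.23% of all genes did not overlap in one direction or the other, and replicate 4 was again the highest. No gene of the 6 further gamma markers, the GDNF list or the Wnt list passed. Calcb, the other CGRP gene, had a log2 fold change of 0.86 (0.103).

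Set against wild type, treated cords still differed in 4 of 7 genes, where 25.5% of all genes passed. Calca was lower by the most (log2 fold change −1.08, SE 0.27, adjusted p = 0.00737), followed by Chodl (−0.98, SE 0.24, 0.0065) and Mmp9 (−0.56, SE 0.15, 0.0083). Wnt7a was higher (0.25, SE 0.07, 0.0107), and it alone showed no overlap, as did 12.6% of all genes. These 4 calls held in each of 30 alternatives. Esrrg (−0.21, adjusted p = 0.238), Esrrb (−0.29, 0.111) and Gfra1 (−0.02, 0.872) did not pass, with 95% intervals of −0.45 to 0.03, −0.53 to −0.04 and −0.17 to 0.13. Esrrb passed without treated replicate 2 (−0.39, 0.0186), without mice older than 36 weeks (−0.43, 0.0182) and without the 4 libraries with conflicting labels (−0.36, 0.0344).

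**Figure D2:**
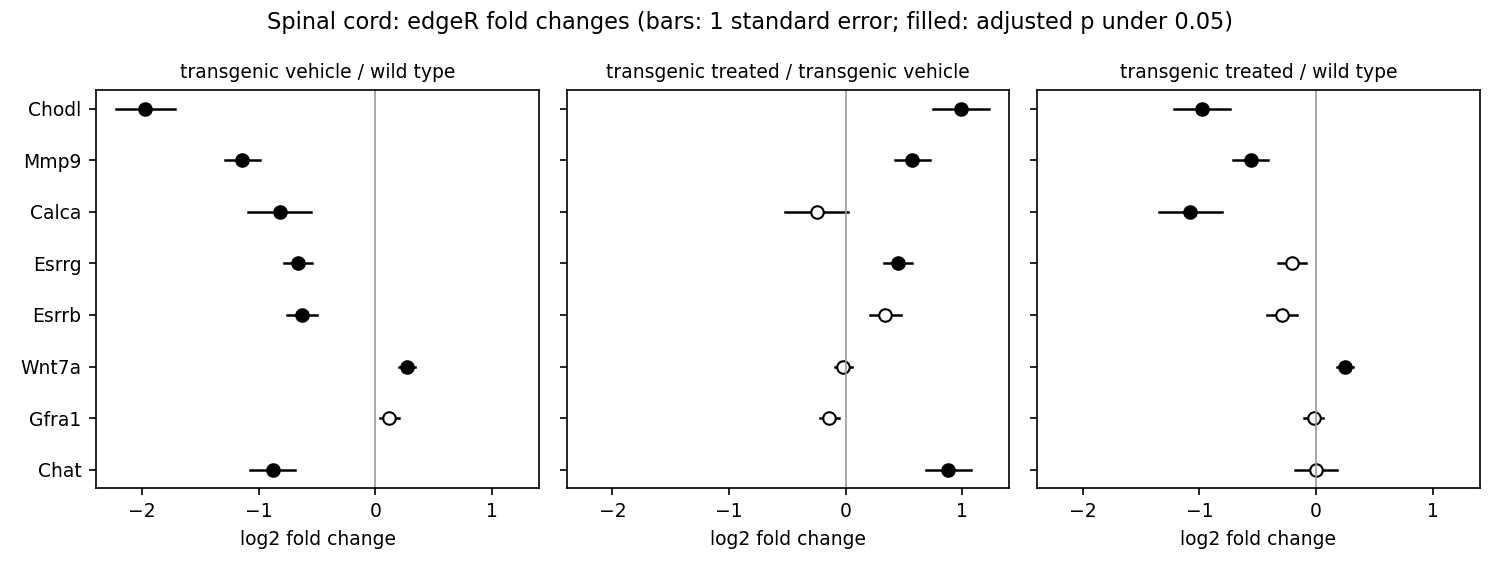
Log2 fold change (x axis) of each marker and of Chat in the 3 spinal cord comparisons, with bars of 1 SE and filled points where the adjusted p was under 0.05. Chodl spans the widest range, from −1.97 with the transgene to 0.99 with treatment, while Calca stays below 0 in all 3 comparisons.

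Ratios within a library remove its scaling and ask whether a fast marker moved by more than a gamma-type marker, or than Chat. There were 12 ratios of a fast to a gamma-type marker and 7 of a marker to Chat, in 3 comparisons, and all 57 exact permutation tests were adjusted together (two-sided, with 0.00216 as the smallest p for 6 against 6). In the transgenic cord all 12 fast to gamma-type ratios were lower than in wild type, 8 of them past the adjusted threshold and without overlap. The 4 that did not pass set Mmp9 or Calca against Esrrg or Esrrb. The fall of Mmp9 and Calca was thus not shown to be larger than that of the receptors: the log2 differences were −0.46 for Mmp9 to Esrrg (adjusted p = 0.101) and −0.25 for Calca to Esrrg (0.392), by exact permutation. Chodl fell by more than each gamma-type marker, by 1.40 on the log2 scale against Esrrg and by 2.18 against Gfra1 (adjusted p = 0.00726 each, exact permutation).

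Against Chat, only Chodl fell by more in the transgenic cord. The mean log2 ratio of Chodl to Chat was 0.75 ± 0.24 in wild type, −0.37 ± 0.34 with vehicle and −0.22 ± 0.30 with treatment (SD, n = 6). The difference of −1.11 between transgenic vehicle and wild type passed (adjusted p = 0.00726, exact permutation), as did that of −0.97 between treated and wild type. Treated and vehicle cords differed by 0.15 (adjusted p = 0.498), so Chodl was not shown to change beyond Chat with treatment. Mmp9 and Calca did not differ from Chat with the transgene (−0.18, adjusted p = 0.569, and 0.03, adjusted p = 0.879, exact permutation). Esrrg and Esrrb differed by 0.28 (0.197) and 0.30 (0.133). The ratios of Wnt7a and Gfra1 to Chat were higher by 1.21 and 1.06 (adjusted p = 0.00726 each, exact permutation). Chat itself fell there (log2 fold change −0.88), while Wnt7a rose by 0.27 and Gfra1 did not pass (0.12, adjusted p = 0.26, edgeR).

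Calca separated from Chat with treatment, where Chat rose (log2 fold change 0.88) and Calca itself did not pass (−0.25, adjusted p = 0.623, edgeR). Its mean log2 ratio to Chat was −0.50 ± 0.22 in wild type, −0.47 ± 0.39 with vehicle and −1.63 ± 0.29 with treatment (SD, n = 6). The treated libraries overlapped with neither other arm, and the differences were −1.16 from vehicle and −1.13 from wild type (adjusted p = 0.00726 each, exact permutation). Without mice older than 36 weeks or without the 4 libraries with conflicting labels, the differences from vehicle were −0.94 and −1.35. There 4 against 4 libraries allow no exact p under 0.0286, and the adjusted p was 0.0525. The differences from wild type were −1.10 and −1.22 and passed (0.0181 each).

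With treatment 5 of 7 markers fell against Chat: Calca, Esrrg (−0.46, adjusted p = 0.0237), Esrrb (−0.58, 0.0463), Wnt7a (−0.93, 0.00726) and Gfra1 (−1.06, 0.00726), all by exact permutation. The own levels of Calca, Esrrb, Wnt7a and Gfra1 did not pass a test there, and that of Esrrg was higher. Chat itself rose (log2 fold change 0.88, adjusted p = 0.0177, edgeR). These ratios show unequal change with Chat and no more. Of the 12 fast to gamma-type ratios 4 were higher and 1 lower. Those of Chodl and of Mmp9 to Wnt7a and to Gfra1 rose, with log2 differences of 0.58 to 1.21, and that of Calca to Esrrg fell by 0.71 (0.0398). Treated against wild type, 9 of 12 fast to gamma-type ratios were lower and none higher.

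**Figure D3:**
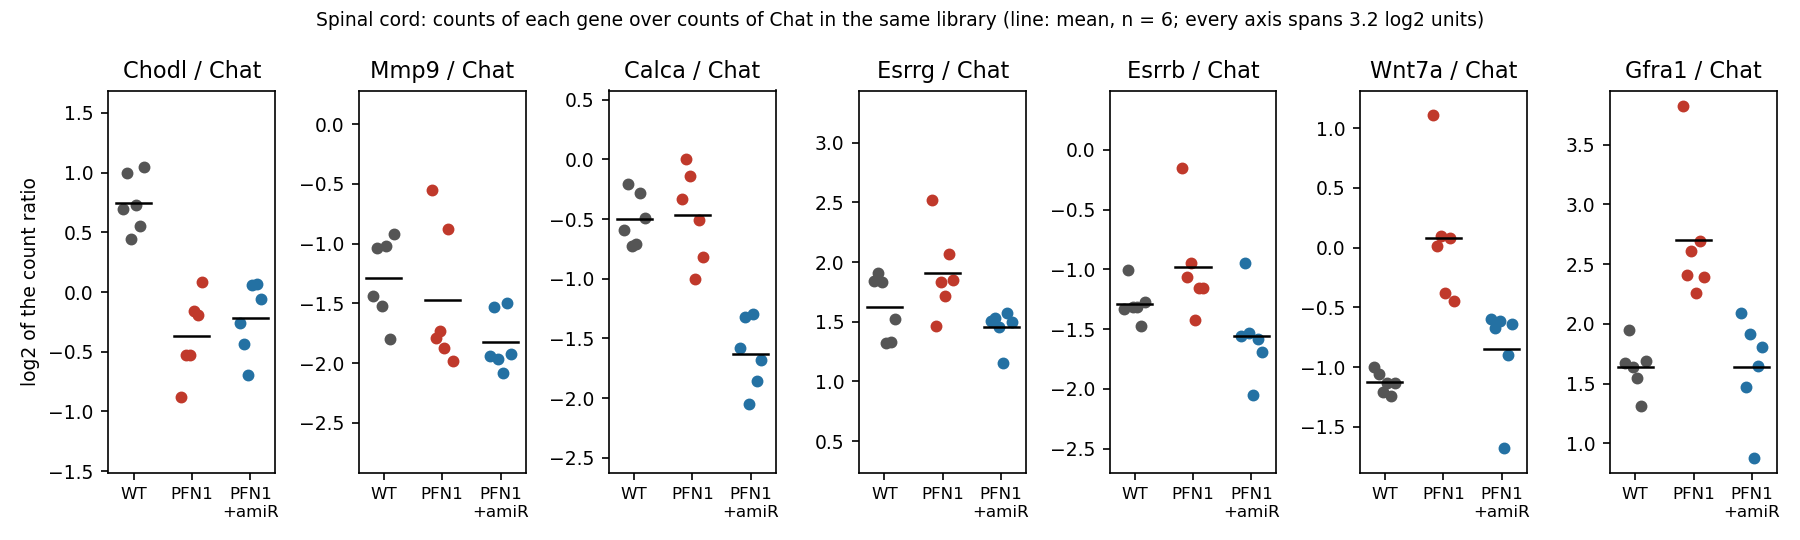
Log2 of the counts of each marker over the counts of Chat (y axis) in each spinal cord library by arm (x axis; points libraries, lines means, n = 6). The Chodl ratio is lower in both transgenic arms than in wild type, and the Calca ratio is lower in treated cords only, at −1.63 against −0.47 with vehicle.

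Across the 18 cords, with arm and sex fitted out, the markers varied to different degrees with Chat, a description over libraries that share depth and dissection. Pearson's r with Chat was 0.89 for Chodl, 0.81 for Calca, 0.72 for Esrrg and 0.64 for Esrrb, against 0.23 for Wnt7a, 0.08 for Mmp9 and 0.00 for Gfra1. Among the fast markers, r was 0.74 between Chodl and Calca but 0.20 between Chodl and Mmp9, and Chodl correlated with the gamma-type Esrrg at 0.81. Of 13732 genes, those most like Chodl were Prph (0.95), Slc10a4 (0.95) and Calcb (0.93), and those most like Calca were Htatip2 (0.90), Calcb (0.89) and Vdr (0.89). Esrrg was most like Asah2 (0.92), Tbc1d4 (0.92) and Nrg1 (0.91), and Esrrb most like P2rx6 (0.89), Polr1e (0.88) and Tns1 (0.88). The nearest genes were Nol10 (0.85), Ace (0.84) and Ttc25 (0.82) for Mmp9. They were P3h4 (0.89), Zfp688 (0.89) and Ttc41 (0.88) for Wnt7a, and Raver2 (0.84), Ltbp1 (0.82) and Cyp7b1 (0.82) for Gfra1. The r values of nearest genes are the highest of 13732 over 18 libraries. Neither they nor the part of single libraries in them was tested.

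The transgenic change was also compared between the sexes, and 1 of 7 markers passed, where 10.3% of all genes did. For Wnt7a the change was smaller in males by 0.37 on the log2 scale (SE 0.10, adjusted p = 0.0334). In wild-type cords, where sex alone was not tested, Wnt7a lay at 10.65 to 11.43 CPM in females and 12.45 to 13.03 in males, and Esrrg at 81.77 to 89.61 in females and 71.34 to 78.29 in males. Of the 3 transgenic females 2 were 39 weeks old and the males were 36 weeks old, so sex and age cannot be told apart there. For Esrrg the male minus female difference in the transgenic change was 0.61 (adjusted p = 0.0511).

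Where the markers were expressed differed by gene, on a scale fitted over all 52 libraries. In wild-type mice Chodl averaged 33.7 CPM in the cord, 0.709 CPM in cortex and 6.36 CPM in muscle, and Calca 14.2, 0.451 and 0.0337. Mmp9 averaged 8.33, 2.18 and 1.26 CPM. The fast markers were thus highest in cord, by 5.54 on the log2 scale over cortex for Chodl and by 4.98 for Calca. Of the gamma-type markers, Esrrg averaged 61.4, 20.1 and 26.3 CPM and Gfra1 61.8, 28.0 and 6.22, highest in cord. Esrrb was highest in muscle (8.16, 1.56 and 17.7 CPM). Wnt7a was as high in cortex (9.75 CPM) as in cord (9.10), with no difference past the threshold (adjusted p = 0.579), and had no count in the 6 wild-type muscles. Cortex and muscle did not differ in Esrrg (adjusted p = 0.0955). For all other pairs of neighbours the levels differed, in contrasts where 60.9%, 85.8% and 86.3% of all genes did (cord and cortex, cord and muscle, cortex and muscle).

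**Figure D4:**
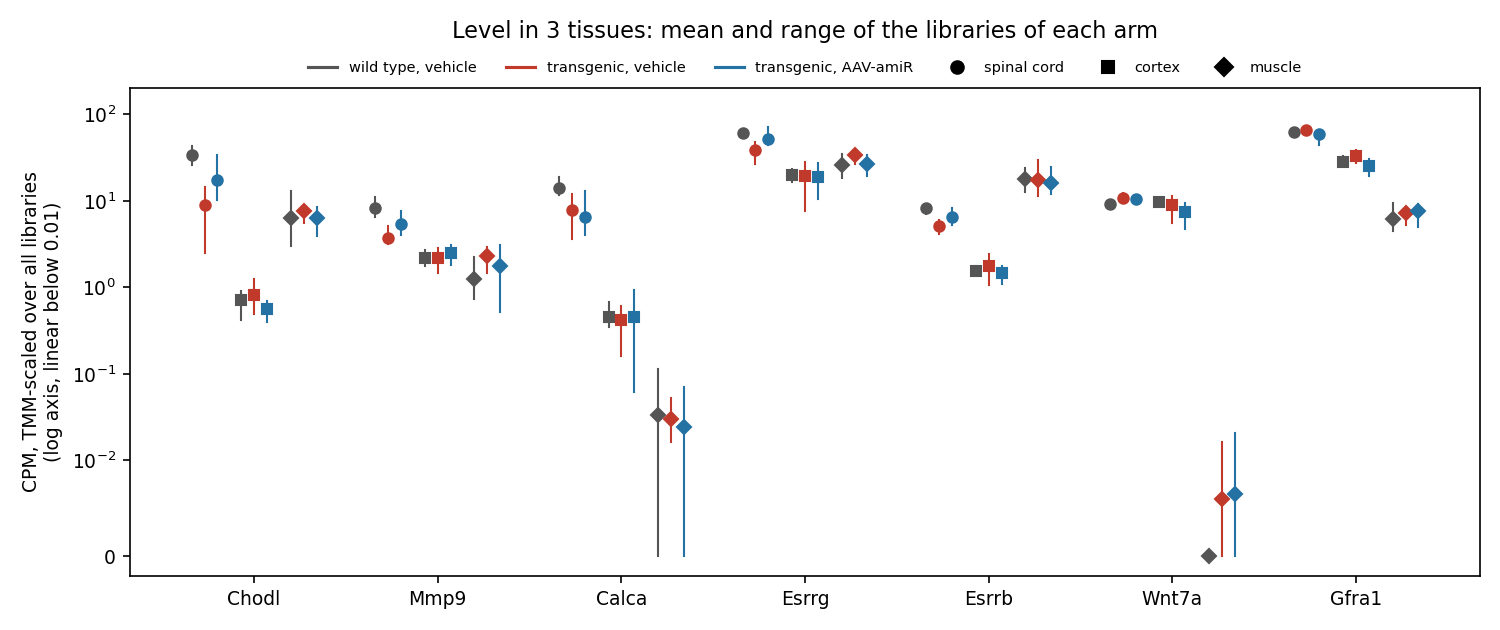
Level of each marker in the 3 tissues and arms (y axis, CPM TMM-scaled over all libraries, a log axis that is linear below 0.01; symbols tissue means, lines the range of the libraries). Chodl lies at 33.7 CPM in wild-type cord and 0.709 in cortex, Calca at 14.2 and 0.451, and Wnt7a at 9.10 and 9.75 with no count in wild-type muscle.

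In cortex none of the 7 markers passed in any comparison, where 0.0247%, 0.0197% and 1.13% of all genes passed (transgenic against wild type, treated against vehicle, treated against wild type). DESeq2 also called none, where it called 9, 363 and 1380 of 20262 genes. At an unadjusted p of 0.05 the counts were 0, 2 and 0 of 7, beside 753, 2302 and 3709 of 20262 genes. The pair were Chodl (log2 fold change −0.51, SE 0.20, adjusted p = 0.358) and Gfra1 (−0.38, SE 0.12, adjusted p = 0.254), both lower with treatment. In the wild-type, vehicle and treated arms Chodl averaged 0.888 ± 0.222, 1.02 ± 0.336 and 0.711 ± 0.126 CPM (SD, n = 5, 6 and 6). Calca, at 0.564 ± 0.158, 0.529 ± 0.218 and 0.571 ± 0.370 CPM, rested on 6 to 104 counts a library. Esrrg averaged 25.1 ± 3.91, 24.5 ± 9.98 and 24.1 ± 7.42 CPM, Gfra1 35.0 ± 3.82, 42.0 ± 5.69 and 32.4 ± 6.03, and Wnt7a 12.2 ± 0.611, 11.4 ± 2.66 and 9.49 ± 2.12.

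The dissection of cortex varied between libraries. Striatal markers summed to 191 to 608 CPM in wild type, 120 to 759 with vehicle and 168 to 969 with treatment. Markers of cortical projection neurons summed to 1401 to 1712, 1196 to 1773 and 1803 to 1955 CPM. The part of dissection in the cortical values was not tested.

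In muscle, where motor axons end but no motor neuron body lies, Chat had no count in any library, Wnt7a at most 1 and Calca at most 5. The remaining 5 markers were tested and none passed in any comparison, where 50.5%, 1.12% and 35.2% of all genes passed. At an unadjusted p of 0.05, which at least those shares of all genes meet, the counts were 2, 1 and 0. Mmp9 lay at 0.425, 0.629 and 1.29 CPM in wild type and at 0.883, 1.12, 1.74, 1.56 and 1.58 CPM in the 5 vehicle-treated transgenic muscles (log2 fold change 0.85, SE 0.35, adjusted p = 0.0508). Esrrg lay at 10.7, 15.5 and 20.8 CPM in wild type and at 18.4, 22.4, 21.8, 21.2 and 15.5 CPM in the transgenic muscles (0.36, SE 0.15, adjusted p = 0.0576). The arms overlapped for both.

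Both values lay close to the threshold and changed with the settings. DESeq2 called both, where it called 51.8% of all genes. With scaling to library totals, which moved the median of all genes by 0.34, Chodl (0.76), Mmp9 (1.17), Esrrg (0.69) and Gfra1 (0.63) passed, 4 of 5 tested, where 62.4% of all genes passed and most were higher (9272 of 10573). Leaving out 1 library gave 0 to 2 calls among the markers, where 7776 to 8697 of all genes passed. Chodl passed without wild-type replicate 1, and Mmp9 without wild-type replicate 2 or treated replicate 4 or 6. Esrrg passed without wild-type replicate 5, transgenic replicate 5 or treated replicate 2 or 5. Mmp9 and Gfra1 both passed without transgenic replicate 1. Chodl averaged 3.76 ± 2.25, 4.47 ± 0.768 and 3.66 ± 1.01 CPM in the 3 arms and Gfra1 3.67 ± 1.21, 4.27 ± 0.657 and 4.43 ± 0.957 (SD, n = 6, 5 and 6). Esrrb averaged 10.5 ± 2.44, 10.4 ± 3.90 and 9.47 ± 2.45. Its log2 fold change was −0.02 with the transgene and 0.31 (adjusted p = 0.21) with scaling to library totals.

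Around these markers the muscle changed widely. Of all genes tested 25.7% rose and 24.8% fell with the transgene. All 12 genes of denervated muscle rose in transgenic muscle, among them Runx1 (log2 fold change 4.40, adjusted p = 5.79e-09), a transcription factor of denervated fibres, and Chrnd (4.27, 9.54e-09), an acetylcholine receptor subunit, as did 7 of 7 slow fibre genes. Of the GDNF list (10 tested) 6 rose and 1 fell. The ligand Gdnf rose by 2.27 (1.66e-06), the adhesion molecule and alternative receptor Ncam1 by 2.92 (1.49e-07), and the co-receptors Gfra4 by 2.13 (8.61e-06) and Gfra2 by 1.70 (5.76e-05), whereas Gfra1 did not pass. Of the Mmp9 list 5 rose, with Timp1 by 4.66 (4.14e-08), Timp2 by 1.08 (4.89e-05) and Mmp3 by 3.06 (0.00012), and Timp4 fell by 1.09 (0.000377).

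Of the partners of the estrogen-related receptors in muscle, 3 of 5 fell: Esrra by 0.59 (adjusted p = 0.000421), and the coactivator genes Perm1 by 0.76 (0.0011) and Ppargc1a by 0.50 (0.00237). These and the next counts stand beside 25.7% of all genes that rose and 24.8% that fell. Of the CGRP list (7 tested) Calcr, the calcitonin receptor gene, which satellite cells also express, rose by 1.94 (6.56e-05). Ramp1, a gene of the CGRP receptor, fell by 0.79 (0.00597), its accessory gene Crcp by 0.20 (0.0292) and Ramp2, a relative of Ramp1, by 0.35 (0.0401). Satellite cell markers rose in 4 of 5 genes. With treatment, Dok5 of the GDNF list (−0.76, 0.0365) and Myf5 of the satellite list (−0.80, 0.0442) passed, as did 1.12% of all genes.

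Whether the effects differed between tissues was tested in a joint model. The transgenic change was lower in cord than in cortex for Chodl by 2.13 on the log2 scale (adjusted p = 2.4e-05), Mmp9 by 1.21 (0.0135) and Esrrb by 0.84 (0.0337), 3 of 7 where 9.68% of all genes passed. It was lower in cord than in muscle for Chodl by 2.44 (5.96e-08), Mmp9 by 2.02 (9.07e-06), Esrrg by 1.05 (0.00405) and Esrrb by 0.64 (0.0451), 4 of 7 where 31.0% passed. For Calca, Wnt7a and Gfra1 no difference between tissues passed. Calca and Wnt7a were nearly absent from muscle, so their contrasts with muscle (SE 1.16 and 1.28 against cord) could not decide whether they differed. The treatment change of Chodl was higher in cord than in muscle by 1.37 (0.0116, where 3.02% passed). Treated muscles held almost no vector RNA, so every treatment contrast with muscle sets a tissue with the vector against one nearly without it. Against cortex it differed by 1.49 (adjusted p = 0.0639), and no marker passed there (0.0672% of all genes did). Treated against wild type, Chodl (−1.07, 0.00944) and Mmp9 (−1.09, 0.0145) were lower in cord than in muscle (21.6% passed) and no marker differed between cord and cortex (5.59%). Between cortex and muscle no marker passed in any of the 3 comparisons (27.7%, 2.54% and 18.2%), and Calca and Wnt7a could not be judged there.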

How the data were processed

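Per the labels, poly(A) RNA libraries (Kapa mRNA HyperPrep) were read as paired ends. The authors deposited RSEM expected counts per gene, without normalization. The submitters' processing notes credit STAR 2.7.2d and RSEM 1.3.2 on GRCm38 and GRCh38. The authors' annotation release, not given in the sources used here, may differ from the GENCODE M21 used for symbols (55141 of 55401 genes matched). Counts were rounded (7.0% were not whole).

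Each tissue was fitted apart in edgeR 4.0.16 under R 4.3.3, as a quasi-likelihood model of arm and sex over all 3 arms, after TMM scaling and filterByExpr. P-values were adjusted (Benjamini-Hochberg) over all genes tested, 20309 for spinal cord, 20262 for cortex, 16949 for muscle. "Passed", "rose" and "fell" mean an adjusted p under 0.05. Tissue and sex differences were interaction terms. Ratios used counts plus 0.5. Alternatives were DESeq2 1.42.0, other scalings, filters and covariates, leaving out each library, the older mice or the libraries with conflicting labels, and a replicate block. The edgeR steps were tested on simulated data.

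The 7 genes and the lists were chosen with earlier results of these data known. The 7 are named throughout, and from each other list at most 4 genes with the smallest adjusted p in transgenic against wild type of that tissue. Genes most like a marker had the highest r at a mean of 1 CPM or more. Other genes (Prph, the treated values of Slit3, Dok5 and Myf5, Isl1 and Scn10a) were picked after their values were seen. Promoters came from RefSeq (GRCm38.p6).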

Additional observations from a re-analysis of the deposited data

Results flagged for a closer look

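In 7 of 57 groups of libraries, 1 library lay apart from the rest of its arm by a gap that was large against the whole range (about 1 group in 20 does so by chance). In spinal cord the gap over the range was 0.727 for Mmp9 in transgenic vehicle replicate 5 (highest, 6.73 CPM), 0.728 for Calca in treated replicate 4 (highest, 17.6 CPM) and 0.655 for Gfra1 in treated replicate 2 (lowest, 60.5 CPM). In cortex the highest library, wild-type replicate 1, stood apart for Calca (0.741) and Gfra1 (0.748). In muscle Esrrb stood apart in replicate 2 of the transgenic vehicle arm (0.711) and in replicate 2 of the treated arm (0.716), a female of 39 weeks and one of 38 weeks, each the highest of its arm.

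In 10 cases a change differed between tissues. For transgenic against wild type, cord minus cortex was −2.13 for Chodl, −1.21 for Mmp9 and −0.84 for Esrrb, and cord minus muscle was −2.44 for Chodl, −2.02 for Mmp9, −1.05 for Esrrg and −0.64 for Esrrb (log2 differences). Cord minus muscle was 1.37 for Chodl for treated against vehicle. For treated against wild type it was −1.07 for Chodl and −1.09 for Mmp9. The transgenic change of Wnt7a in cord differed by −0.37 between males and females.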

How the results depend on the processing

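Over 255 results of single genes or ratios, 2133 values under alternatives were computed: 2014 kept their side of the threshold, 84 lost a call, 35 gained one and 0 reversed a called direction, while 72 values that never passed changed sign. In spinal cord the count of markers passing between treated and vehicle was 3. It was 1 with scaling to library totals, with only the 2 arms compared and with the replicate block, and 0 with no covariate, with sex and RIN, without mice older than 36 weeks, with arms from the library names and without the 4 libraries with conflicting labels, and 0 to 3 with 1 library left out. In muscle the count of markers between transgenic and wild type was 0, where 8552 of 16949 genes passed. It was 2 with DESeq2, 1 with RLE size factors and 4 with library totals. It was 2 with no filter on low counts, 2 with a mean of at least 1 CPM, 1 with no covariate and 1 with only the 2 arms. With 1 library left out it was 0 to 2. All genes passing ranged from 7028 to 10573 over other settings and from 7776 to 8697 with 1 library left out. Between treated and wild type the count of markers was 1 with library totals, where 7247 genes passed. The count of ratios passing between treated and vehicle was 10, and 0 without the 4 libraries with conflicting labels or without the older mice, where 4 libraries an arm remain. Between tissues, the count for treatment in cord against muscle was 0 with no sex term, that for treated against wild type was 1 with no sex term or without the older mice, and that for the transgene in cortex against muscle was 1 (Esrrb, 0.59) without the older mice. Esrrb in cord against muscle did not pass with RLE size factors (−0.62, adjusted p = 0.0535) or without the older mice (−0.53, 0.0645). Other causes were not tested.

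Like-numbered libraries of different arms correlated at r of −0.19 to 0.40 (cord), −0.47 to 0.69 (cortex) and −0.29 to 0.64 (muscle), so the numbers were not taken to pair the samples. With a replicate block 5 markers passed between treated and wild-type cords, and 1 between treated and vehicle, where 4680 and 555 of 20309 genes passed. Over all genes, treated against vehicle cords gave 1038 calls, 0 to 2229 under other settings and 242 to 2538 with 1 library left out. Cortex gave 5 (up to 9 with DESeq2), 4 (0 to 363, and 1 to 80 with 1 left out) and 228 (9 to 1380, and 11 to 492), and muscle 190 for treatment (1 to 969, and 0 to 965). For the 3 comparisons, scaling to library totals moved the share of calls that were higher in cord (51.2% to 72.9%, 57.2% to 40.3%, 57.1% to 70.2%), in cortex (60.0% to 75.0%, 50% to 33.3%, 59.2% to 45.8%) and in muscle (50.9% to 87.7%, 68.4% to 12.6%, 49.8% to 85.4%). It moved the median of all genes in muscle by 0.34, −0.13 and 0.20. Cortical Chodl and Calca and muscle Mmp9 rest on 6 to 183 counts a library, so small changes in them may have been missed. The smallest detectable change was not computed.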
